A study of Mus musculus with 12 samples.

Results

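The genes described here are 7 genes of cysteine and taurine metabolism, Cdo1, Csad, Cth, Cbs, Slc6a6, Got1 and Mpst, out of 18194 genes measured in mouse prostate. They were named with earlier results of these data known, in which Cdo1 was already among the largest lateral differences, so every lateral and lobe value of Cdo1 is given as a description with no test. The tests of the other 6 genes are likewise not independent of how the list was drawn up. Each gene is represented by a probe set chosen by its highest mean over the 12 arrays, among the 11 probe sets annotated to 1 of these symbols alone. Slc6a6 had 4 such probe sets, Cbs had 2 and the other genes 1 each.

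Total RNA of whole prostate lobes was hybridised to single-colour Affymetrix arrays, and the values are RMA signals on a log2 scale, on which 1 unit is a doubling. The groups were ventral prostate of Med1 knockout mice, ventral prostate of wild-type mice, lateral prostate of Med1 knockout mice and lateral prostate of wild-type mice, with 3 arrays in each, all at 16 weeks of age and without a stated treatment. Med1 encodes a subunit of Mediator, which connects nuclear receptors and other transcription factors to RNA polymerase II. The sources used here do not say which promoter or cell type limits the deletion, which part of Med1 is lost, what the strain is or whether animals were pooled. They also do not tie each array to a mouse of its own, so a p-value reflects the spread among arrays, which may be technical.

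Cysteine is made from methionine by transsulfuration. Cystathionine beta-synthase (Cbs) joins homocysteine to serine, and cystathionine gamma-lyase (Cth) splits the product to release cysteine. Cysteine dioxygenase (Cdo1) oxidises cysteine to cysteine sulfinate and so sets its level in cells, and cysteine sulfinate decarboxylase (Csad) takes the sulfinate on towards taurine, an abundant osmolyte that the transporter Slc6a6 also brings in from outside. The cytosolic aspartate aminotransferase Got1 can divert cysteine or its sulfinate by transamination, and mercaptopyruvate sulfurtransferase (Mpst) uses the resulting mercaptopyruvate to make persulfides and hydrogen sulfide.

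Of the 7 genes, Cbs showed a rise in both lobes, and its promoter is shown beside that of Got1, which passed in neither lobe, so that both start regions can be read side by side. The stretches are from RefSeq on GRCm38.p6 and hold only bases upstream of the annotated gene. Both genes lie on the minus strand, Cbs upstream of its start at chr17:31637234-31637455 and Got1 at chr19:43524606-43524855. Capitals mark CCAAT boxes (CCAAT or ATTGG) and GC boxes (GGGCGG or CCGCCC), and no marks overlap each other.

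Cbs: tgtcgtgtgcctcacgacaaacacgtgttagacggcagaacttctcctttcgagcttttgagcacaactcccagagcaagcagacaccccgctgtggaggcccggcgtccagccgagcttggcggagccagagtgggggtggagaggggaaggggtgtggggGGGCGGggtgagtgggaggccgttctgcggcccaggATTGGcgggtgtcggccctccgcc
Got1: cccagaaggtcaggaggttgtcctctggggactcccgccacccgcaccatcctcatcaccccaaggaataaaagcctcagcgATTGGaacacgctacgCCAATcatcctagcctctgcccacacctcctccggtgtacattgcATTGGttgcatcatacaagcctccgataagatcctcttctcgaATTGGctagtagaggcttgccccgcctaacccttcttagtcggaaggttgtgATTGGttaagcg

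The Cbs stretch of 222 bases was 66.2% G or C and held 1 CCAAT box and 1 GC box. The Got1 stretch of 250 bases was 54.4% G or C and held 5 CCAAT boxes and 0 GC boxes. Among the 32851 RefSeq start windows of 250 upstream bases, 33.8% held a CCAAT box and 32.7% a GC box on either strand; the full Cbs window of that length reaches into the gene's annotated start and held 2 of each. Promoter windows were searched for 4 of the 7 genes, Cbs, Csad, Got1 and Mpst, with 7 start sites in all, and windows of Mpst partly overlap. Cdo1 was left out of this search, and Cth and Slc6a6 had no window. The nuclear receptor half-site AGGTCA, in either orientation, lay in 1 of these 7 windows, that of Got1, against 14.0% of all windows. The androgen receptor half-site AGAACA lay in 0 of them, against 16.1% of all windows. These matches describe letters in a short window and say nothing of binding.

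The median signal of an array was 6.39 to 6.43 for ventral and 6.05 to 6.06 for lateral prostate. Values sorted within each array had a median range across arrays of 0.0493 over the 6 ventral, 0.0786 over the 6 lateral and 0.388 over all 12, so the lobes seem to have been normalized separately, and lobe and normalization cannot be told apart. Med1 averaged 8.86 ± 0.16 in ventral knockout and 9.43 ± 0.12 in ventral wild type (SD, n = 3 each; limma adjusted p = 0.0119). In lateral prostate it averaged 8.39 ± 0.049 in the arrays labelled knockout and 8.52 ± 0.26 in wild type (SD, n = 3 each; limma adjusted p = 0.622), and whether its probes lie in the deleted part is not given. Luminal epithelial markers were bright in every group (8 of 10 measured, 0 of them dim). Genes of the seminal vesicle, the gland that adjoins the prostate, set arrays apart. The log2 of their summed signal (7 of 10 genes measured) was 8.57 to 8.70 in ventral knockout and 8.63 to 9.65 in ventral wild type, with replicate 3 of wild type highest. It was 13.09, 13.18 and 10.76 in lateral knockout replicates 1, 2 and 3, and 15.25 to 15.33 in lateral wild type. Of these 7 genes, 6 (all but Svs5) were dim in both ventral groups and 0 in either lateral group. Replicate 3 of ventral knockout had the widest gap between the 3′ and 5′ control probes of Gapdh, a sign of RNA quality, at 2.67 log2 units against 1.74 to 2.22 on the other 11 arrays.

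Cdo1, the cysteine-oxidising enzyme, was the gene of the list with the widest range. In lateral knockout prostate it read 9.21, 9.29 and 8.42 log2 units, against 12.44, 12.37 and 12.50 in lateral wild type. The lateral groups did not overlap, and replicate 3 was the lowest of the knockout arrays. The means were 8.97 ± 0.48 in lateral knockout and 12.44 ± 0.064 in lateral wild type (SD, n = 3 each), a difference of -3.47 ± 0.22 (SE), which is an 11.0-fold lower signal. It was the 8th lowest of all 18194 lateral differences. With each array left out in turn the difference lay between -3.62 and -3.19.

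In ventral knockout prostate Cdo1 read 9.14, 9.05 and 9.01, against 8.54, 8.61 and 9.38 in ventral wild type. These groups overlapped through replicate 3 of wild type alone. The difference was 0.23 ± 0.22 (SE; limma adjusted p = 0.574) with a 95% interval of -0.25 to 0.70. Without ventral wild-type replicate 3 it was 0.49 (limma adjusted p = 0.174). Without that array and lateral knockout replicate 3 together, the difference was the same 0.49 (limma adjusted p = 0.0113). These arrays lie farthest from the rest of their groups in Cdo1 itself, and the lower p comes from the smaller variance left, so no rise is read from it.

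In order of its means as deposited, Cdo1 was highest in lateral wild type, then ventral knockout, lateral knockout and ventral wild type. The last 3 of these groups overlapped. In wild type the lateral lobe exceeded the ventral by 3.60 ± 0.22 log2 units (SE), 12.1-fold, while in knockout the lateral lobe differed from the ventral by -0.095 ± 0.22. The lateral change minus the ventral change was -3.69 ± 0.31 (SE). With all 12 arrays brought to 1 distribution by quantile normalization, the lobe difference was 3.99 in wild type and 0.52 in knockout. In knockout it was 0.27 after median centring and 0.18 as deposited without lateral knockout replicate 3, so its sign is not settled.

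Seminal vesicle genes moved beside Cdo1, and their part in its difference was not tested. In lateral prostate both the summed seminal vesicle signal and Cdo1 were lower in knockout, and replicate 3 of lateral knockout was lowest in both. In ventral wild type, replicate 3 was highest in both. The dim call of 6 of the 7 seminal vesicle genes in that group rests on group means and was not made for this array. In lateral knockout replicates 1 and 2 the seminal vesicle signal (13.09 and 13.18) was over that of every ventral array. As deposited, Cdo1 on these arrays (9.21 and 9.29) was over 5 of the 6 ventral arrays (8.54 to 9.14) and under ventral wild-type replicate 3 (9.38). Without lateral knockout replicate 3 the Cdo1 difference was -3.19. Fat, which also expresses Cdo1, was followed with 9 of 12 adipocyte markers, whose log2 summed signal was 9.88 to 10.10 in lateral knockout and 10.33 to 10.37 in lateral wild type, with Adipoq and Lep dim in both.

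**Figure D1:**
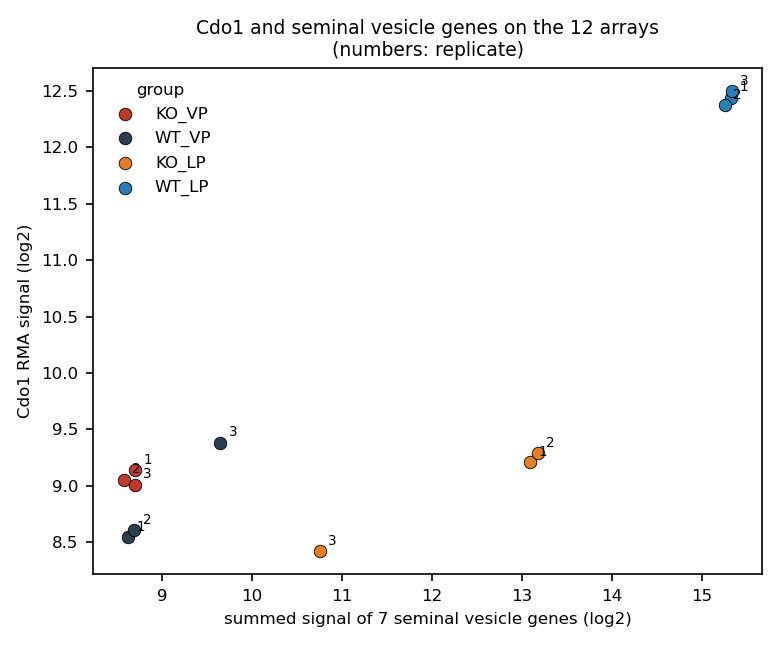
Cdo1 signal (vertical axis, log2) against the log2 of the summed signal of 7 seminal vesicle genes (horizontal axis) on the 12 arrays, 1 point per array with its replicate number, coloured by group (KO, Med1 knockout; WT, wild type; VP, ventral; LP, lateral prostate). The 3 WT_LP arrays stand alone at the upper right. KO_LP replicates 1 and 2 lie above 5 of the 6 ventral arrays in Cdo1 and above all 6 in seminal vesicle signal. The scales seem to have been set separately for the lobes.

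The 5 named genes whose pattern lay nearest to Cdo1 were Svs4, Nefh, Emx2, Svs5 and Pfkfb3. Likeness was the mean absolute difference over the 12 arrays after the mean of each gene in each lobe was taken away, and it was 0.235, 0.260, 0.263, 0.267 and 0.299 log2 units for these genes in that order. A gene without any variation would lie 0.994 from Cdo1. Svs4 and Svs5 are seminal vesicle secretory proteins, Nefh is a neurofilament subunit, Emx2 a homeobox factor of the urogenital tract and Pfkfb3 a regulator of glycolysis. Their lateral knockout minus wild-type differences ranged from -4.20 (Nefh) to -3.06 (Pfkfb3), and their ventral differences from -0.26 (Svs5) to 0.49 (Svs4). Svs4, Nefh and Emx2 were dim in both ventral groups (means 3.13 to 4.45, mark 4.73), so their ventral differences are those of dim signals. Nefh (4.21) and Emx2 (4.17) were also dim in lateral knockout (mark 4.52), so the size of their lateral falls is uncertain. Since nearness was set by the same arrays, these values are a description.

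**Figure D2:**
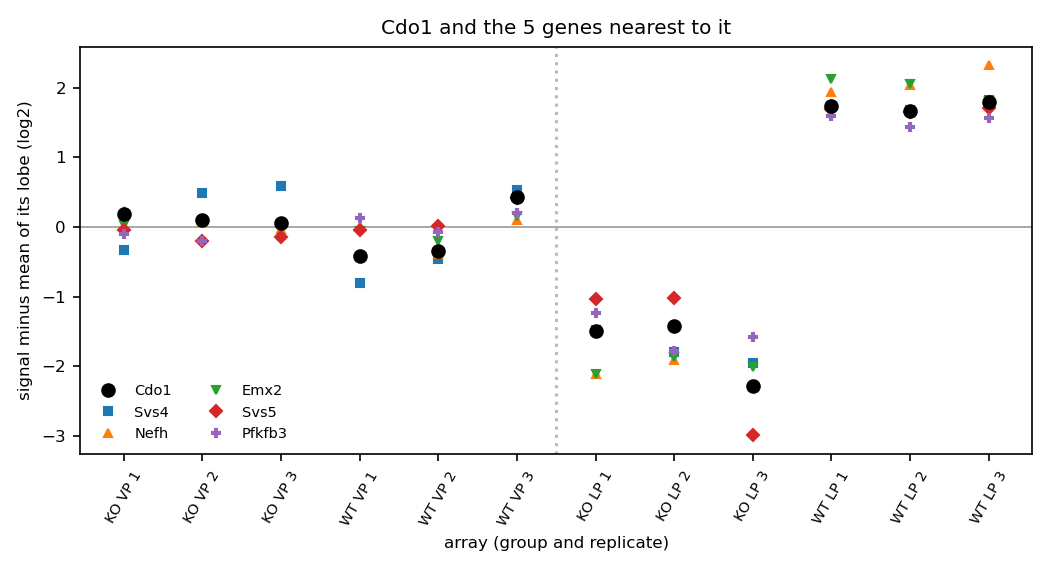
Signal of Cdo1 (black circles) and of the 5 genes nearest to it on each array (horizontal axis, group and replicate), as the difference from the mean of the gene in its lobe (vertical axis, log2). Cdo1 lies at -2.28 to -1.42 in the 3 KO LP arrays and at 1.67 to 1.79 in the 3 WT LP arrays, while its ventral arrays lie between -0.41 and 0.43.

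Csad, the next enzyme towards taurine, did not pass in either lobe. In ventral knockout it read 9.51, 9.65 and 9.23, against 9.52, 9.70 and 9.84 in ventral wild type. These groups overlapped, and the difference was -0.22 ± 0.12 (SE; limma adjusted p = 0.249; 95% interval -0.47 to 0.024). In lateral knockout it read 9.05, 8.88 and 8.88, against 8.87, 9.05 and 9.02 in lateral wild type. The lateral groups covered the same range, with a difference of -0.039 ± 0.12 (SE; limma adjusted p = 0.892) and a 95% interval of -0.29 to 0.21. The lateral interval thus ends far short of the Cdo1 difference. In order of means as deposited, Csad ran from ventral wild type over ventral knockout and lateral wild type to lateral knockout. There was overlap within each lobe and none between the lobes. After quantile normalization over all arrays, lateral minus ventral was -0.17 in wild type and 0.091 in knockout and did not pass.

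Slc6a6, the taurine transporter, was lower in lateral knockout without passing. It read 7.60, 7.90 and 7.82 in lateral knockout, against 8.01, 8.15 and 8.24 in lateral wild type. The groups did not overlap, and the difference was -0.36 ± 0.10 (SE; limma adjusted p = 0.0553). It passed without ventral knockout replicate 3 (0.0372), with the dimmest genes left out (0.0358) and with a variance trend (0.0360), all of which change only the variance or the adjustment. All 4 probe sets were lower in lateral knockout without overlap, by -0.43 to -0.21, and 0 of them passed by limma over all probe sets (lowest adjusted p = 0.0835, lowest unadjusted p = 0.00380). In ventral knockout Slc6a6 read 9.48, 9.52 and 9.70, against 9.57, 9.43 and 9.53 in ventral wild type, a difference of 0.054 ± 0.10 (SE; limma adjusted p = 0.786). The other 3 probe sets put the ventral difference between -0.28 and -0.13, so its sign is not settled. The lateral change minus the ventral change was -0.42 ± 0.14 (limma adjusted p = 0.0836).

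Cbs, the entry step of transsulfuration, rose in both lobes. In lateral knockout it read 10.71, 10.76 and 10.72, against 9.66, 9.86 and 9.50 in lateral wild type. Every lateral knockout array lay above every lateral wild-type array, and the knockout arrays were nearly equal. The means were 10.73 ± 0.024 in lateral knockout and 9.67 ± 0.18 in lateral wild type (SD, n = 3 each), and the rise was 1.06 ± 0.13 (SE), or 2.08-fold (limma adjusted p = 2.21e-04). It was the 21st highest of 18194 lateral differences. The rise passed under each of 22 alternatives that gave it a value, between 0.93 and 1.15.

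In ventral knockout Cbs read 10.72, 10.71 and 10.89, against 9.98, 10.10 and 10.53 in ventral wild type. The groups again did not overlap, although wild-type replicate 3 came close. The ventral rise was 0.57 ± 0.13 (SE), 1.48-fold (limma adjusted p = 0.0154). This call was lost without ventral wild-type replicate 1 (0.45; limma adjusted p = 0.0698), ventral wild-type replicate 2 (0.52; 0.0569) or ventral knockout replicate 3 (0.51; 0.0613), and with the 6 ventral arrays alone (0.0573). The other Cbs probe set rose by 0.70 ± 0.10 in ventral knockout (limma adjusted p over all probe sets = 0.00132) and by 0.93 ± 0.10 in lateral knockout (1.42e-04), without overlap in either lobe. The lateral change minus the ventral change was 0.49 ± 0.18 (SE; 95% interval 0.092 to 0.89) and did not pass after adjustment over all genes (limma adjusted p = 0.117). In order of means as deposited, Cbs ran from ventral knockout and lateral knockout, which overlapped, to ventral wild type and then lateral wild type. The wild-type groups did not overlap each other or the knockout groups. In the other probe set the knockout groups did not overlap either. There lateral minus ventral knockout was -0.45 ± 0.10 (SE; limma adjusted p over all probe sets = 0.00146).

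The 5 named genes nearest to Cbs in pattern over the 12 arrays were Defb2, Ctsh, Cyp4v3, Mia2 and Arhgef4, at 0.0997 to 0.161 log2 units, where a gene without variation would lie 0.413 away. Defb2 is a beta-defensin, Ctsh a lysosomal cysteine protease and Cyp4v3 a fatty acid hydroxylase. Their lateral differences lay between 1.00 and 1.11 and their ventral differences between 0.28 and 0.93, again as a description. Summed luminal epithelial signal covered overlapping ranges in lateral knockout (14.54 to 14.61) and lateral wild type (14.54 to 14.63). That of the urothelium, the lining of the urinary tract (5 of 5 markers, 0 dim), was 11.70 to 11.73 in lateral knockout and 11.19 to 11.30 in lateral wild type. In lateral knockout 2 of these 5 markers passed as higher, beside 1.62% of all genes. There 5 of 11 smooth muscle and 5 of 9 fibroblast markers passed as lower, beside 3.42% of all genes. In ventral prostate the urothelial signal was 12.32 to 12.54 in knockout and 12.37 to 12.47 in wild type, and its part in the Cbs rise was not tested.

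Cth, the enzyme that releases cysteine, went opposite ways in the lobes. In ventral knockout it read 6.44, 6.47 and 6.84, against 6.03, 6.08 and 5.99 in ventral wild type. The groups did not overlap, and the rise was 0.55 ± 0.12 (SE), 1.46-fold (limma adjusted p = 0.0132). In lateral knockout it read 5.53, 5.37 and 5.57, against 5.74, 6.13 and 6.07 in lateral wild type. Here every knockout array lay below every wild-type array, and Cth fell by 0.49 ± 0.12 (SE) on the log2 scale (limma adjusted p = 0.0343). The lateral change minus the ventral change was -1.04 ± 0.17 (SE; limma adjusted p = 0.00207), and it passed under each of 19 alternatives that gave it a value, from -1.16 to -0.91. Cth was among the dimmest 40% of genes and could not be followed where those were left out.

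Each lobe taken alone was less firm for Cth. The ventral call was lost without ventral wild-type replicate 3 (0.53; limma adjusted p = 0.0510), without that array and lateral knockout replicate 3 together (0.53; 0.0644), and without ventral knockout replicate 3 (0.42; 0.0502), the array with the widest Gapdh probe gap. The lateral call was lost without lateral wild-type replicate 2 (-0.41; 0.136) or replicate 3 (-0.45; 0.137), without lateral knockout replicate 1 (-0.51; 0.0579), replicate 2 (-0.43; 0.142) or replicate 3 (-0.53; 0.0617), without both arrays named above (-0.53; 0.0799), and with the 6 lateral arrays alone (0.05003). In order of means as deposited, Cth ran from ventral knockout to ventral wild type, lateral wild type and lateral knockout, and only the 2 wild-type groups overlapped.

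Stromal and basal markers had the same directions as Cth, and their part in its changes was not tested. The log2 summed signal of 11 of 11 smooth muscle markers was 14.43 to 14.67 in ventral knockout and 13.98 to 14.20 in ventral wild type, and 14.59 to 14.84 in lateral knockout and 15.05 to 15.13 in lateral wild type. That of 9 of 9 fibroblast markers was 13.23 to 13.39 in ventral knockout and 12.89 to 13.15 in ventral wild type, and 12.30 to 12.58 in lateral knockout and 12.75 to 12.85 in lateral wild type. That of 5 of 5 basal epithelial markers was 10.52 to 10.58 in ventral knockout and 10.18 to 10.36 in ventral wild type, and 11.02 to 11.10 in lateral knockout and 11.37 to 11.52 in lateral wild type. None of these markers was dim, and in whole lobes fewer cells of a type and less RNA per cell cannot be told apart.

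Got1, the cytosolic aminotransferase, varied little. It read 8.59, 8.67 and 8.79 in ventral knockout, against 8.80, 8.87 and 8.66 in ventral wild type, and 8.55, 8.68 and 8.57 in lateral knockout, against 8.75, 8.83 and 8.76 in lateral wild type. The lateral groups did not overlap, but neither difference passed, at -0.093 ± 0.087 (SE; limma adjusted p = 0.550) in ventral and -0.18 ± 0.087 (0.273) in lateral prostate. The 95% intervals were -0.28 to 0.094 in ventral and -0.37 to 0.0064 in lateral prostate.

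Mpst, the sulfurtransferase, read 6.91, 7.09 and 6.82 in ventral knockout, against 7.07, 7.28 and 7.04 in ventral wild type. In lateral knockout it read 6.87, 6.81 and 6.96, against 6.96, 7.08 and 7.01 in lateral wild type. The groups overlapped in both lobes. The differences were -0.19 ± 0.095 (SE; limma adjusted p = 0.234; 95% interval -0.40 to 0.014) in ventral and -0.14 ± 0.095 (0.468; -0.34 to 0.068) in lateral prostate. The group means of Got1 were 8.68 in ventral knockout, 8.78 in ventral wild type, 8.60 in lateral knockout and 8.78 in lateral wild type. Those of Mpst were 6.94, 7.13, 6.88 and 7.02 in the same groups, and neighbours in the order of either gene overlapped.

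**Figure D3:**
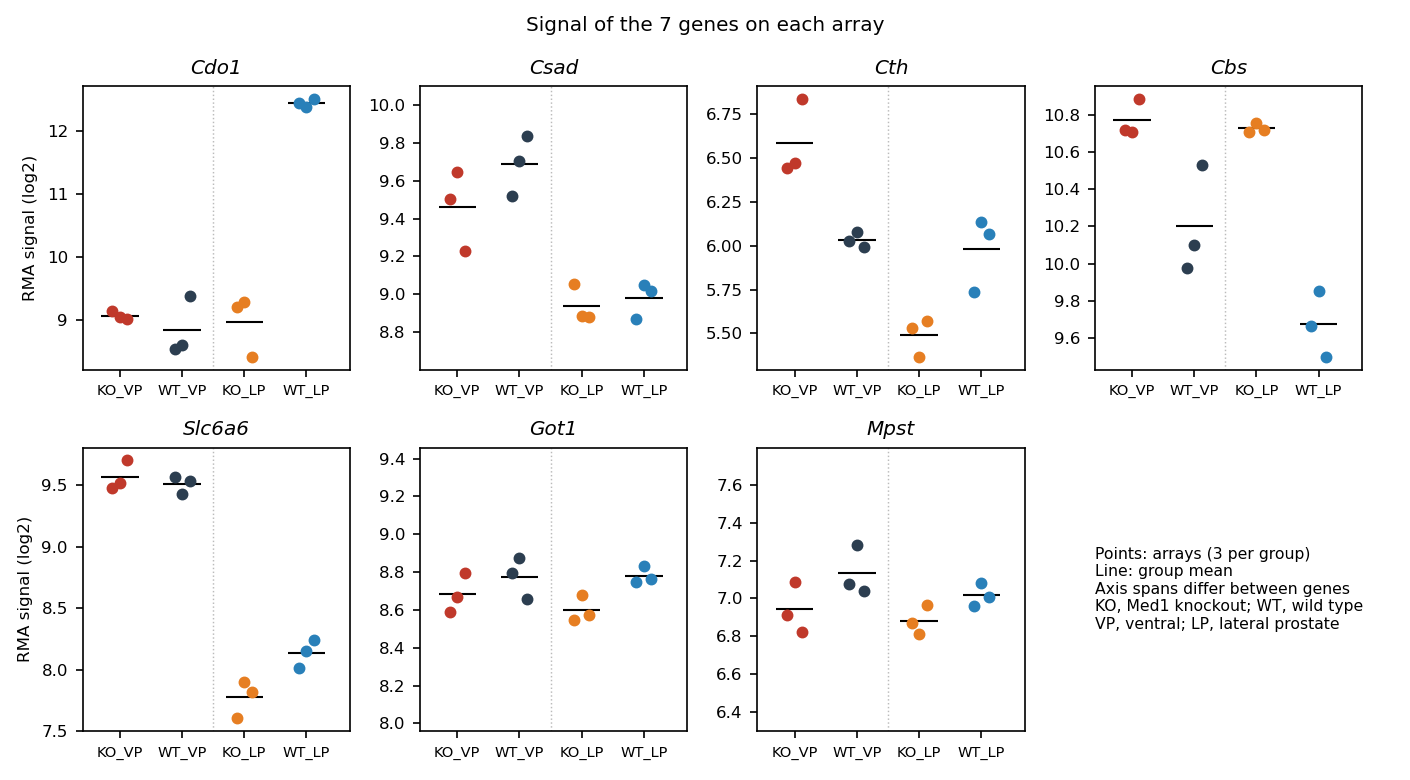
RMA signal (vertical axis, log2) of each of the 7 genes on every array, grouped along the horizontal axis as KO_VP, WT_VP, KO_LP and WT_LP (KO, Med1 knockout; WT, wild type; VP, ventral; LP, lateral prostate), with a line at the group mean; the vertical axes cover different ranges. Cdo1 stands out in WT_LP, and Cbs is higher in both knockout groups than in wild type of the same lobe. As deposited, Slc6a6 and Csad are higher in ventral than in lateral arrays, but the Csad lobe difference did not pass after quantile normalization over all arrays.

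Counted over the list, 2 of 7 genes (Cbs and Cth) rose and 0 fell in ventral knockout, where 5.88% of all genes passed as higher and 3.20% as lower. The median over the 7 was 0.054, against -0.020 over all genes. In lateral knockout 1 of the 6 genes with a test rose (Cbs) and 1 fell (Cth), where 1.62% of all genes passed as higher and 3.42% as lower, and their median was -0.16, against -0.0025 over all genes. Arrays of the genotypes did not overlap for 2 of 7 genes in ventral prostate, where 29.5% of all genes had no overlap. They did not overlap for 4 of 6 genes in lateral prostate (Cth, Cbs, Slc6a6 and Got1), where 26.9% of all genes had none. The lobe difference of the change passed as lower for 1 of 6 genes (Cth), beside 6.51% of all genes. With so few genes, chosen with results known, these shares describe the list only.

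**Figure D4:**
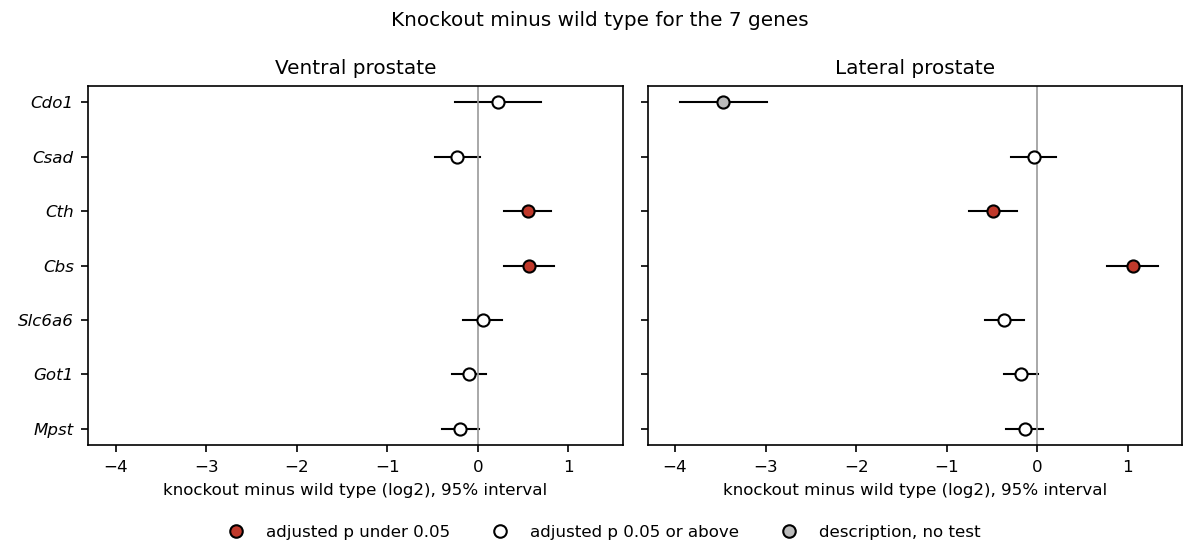
Knockout minus wild-type difference (horizontal axis, log2) of the 7 genes in ventral (left) and lateral (right) prostate, with 95% intervals as bars; red points passed at an adjusted p under 0.05, white points did not, and the grey point (Cdo1, lateral) is a description. Cbs lies right of 0 in both lobes, Cth right of 0 in ventral and left of 0 in lateral prostate, and Cdo1 at -3.47 in lateral prostate.

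The lobes were also set side by side within each genotype. As deposited, 55.8% of all genes passed as lower in lateral than ventral wild type and 53.1% in knockout, with medians of -0.34 and -0.31 over all genes, so the counts of 3 of 6 listed genes lower and 0 higher in either genotype are near the background. Quantile normalization over all arrays moved these medians to 0.049 in wild type and 0.078 in knockout, and the listed genes to 2 higher and 1 lower in wild type and 3 higher and 2 lower in knockout. Median centring gave 3 higher and 2 lower in both. After quantile normalization Got1 (0.52; limma adjusted p = 1.69e-04) and Mpst (0.31; 0.0111) passed as higher in lateral wild type, and Got1 (0.51; 1.67e-04), Mpst (0.40; 0.00199) and Cbs (0.54; 0.00418) in lateral knockout. In its brightest probe set Slc6a6 was lower in lateral than ventral prostate on both scales. In wild type the difference was -1.38 ± 0.10 (SE; limma adjusted p = 4.26e-08) as deposited and -0.86 after quantile normalization. In knockout it was -1.79 ± 0.10 (2.81e-09) and -1.22. A further Slc6a6 probe set gave -1.53 as deposited in wild type. The remaining 2 gave -0.29 and -0.19 there and did not pass (limma adjusted p = 0.177 and 0.308). These 2 values are smaller in size than the median of -0.34 over all genes. The size of this lobe difference thus depends on the probe set, and its direction is not settled in these 2. Cth was lower in lateral than ventral knockout, by -1.09 ± 0.12 (2.53e-06) as deposited and -0.76 after quantile normalization. The lobe differences of Csad (-0.71 in wild type, -0.52 in knockout) and of Cbs in wild type (-0.53) passed as deposited, but after quantile normalization were -0.17, 0.091 and 0.024 and did not pass.

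The rest of the sulfur amino acid network was followed with 7 lists of 65 further genes, of which 61 were measured. In ventral knockout 5 of the 61 rose and 2 fell (median -0.0067, against -0.020 over all genes), shares not far from the 5.88% and 3.20% of all genes. In lateral knockout 0 rose and 1 fell (median -0.045, against -0.0025), where 1.62% and 3.42% of all genes did.

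In ventral knockout 1 of 9 genes of coenzyme A and cysteamine rose, and of 7 genes of taurine synthesis and transport 1 rose and 1 fell. Vnn1, which releases cysteamine from pantetheine, read 7.53, 7.51 and 7.52 in ventral knockout, against 6.80, 6.89 and 6.52 in ventral wild type, a rise of 0.79 ± 0.14 (SE; limma adjusted p = 0.00267). The groups were well apart, and the 3 knockout arrays nearly equal. Fmo1, a monooxygenase that can oxidise hypotaurine to taurine, read 7.81, 7.56 and 7.82 in ventral knockout, against 7.25, 7.09 and 7.24 in ventral wild type, a rise of 0.54 ± 0.11 (limma adjusted p = 0.00709). Slc36a1, a proton-coupled amino acid transporter, was the taurine gene that fell, at 8.89, 8.89 and 8.91 in ventral knockout, against 9.25, 9.25 and 9.28 in ventral wild type (-0.37 ± 0.080; 0.0118), with very little spread in either group. Slc16a6, a monocarboxylate transporter family member that carries taurine, was the 1 gene past the threshold in lateral prostate. It read 7.07, 6.96 and 6.86 in lateral knockout, against 7.67, 7.59 and 7.51 in lateral wild type, a difference of -0.63 ± 0.089 (SE; limma adjusted p = 7.68e-04).

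Of 12 measured genes of glutathione synthesis and breakdown 2 rose in ventral knockout. Dpep1, a dipeptidase that completes glutathione breakdown outside cells, averaged 10.50 ± 0.24 in ventral knockout and 9.76 ± 0.13 in ventral wild type (SD, n = 3 each; limma adjusted p = 0.00208). Gclc, the catalytic subunit of the rate-limiting enzyme of glutathione synthesis, averaged 9.43 ± 0.053 in ventral knockout and 9.13 ± 0.056 in ventral wild type (SD, n = 3 each; limma adjusted p = 0.0353). Of 15 genes of the methionine cycle and salvage, Mtap, which recovers methionine from methylthioadenosine, was the 1 that rose (0.46 ± 0.12; limma adjusted p = 0.0246). Of 6 genes of cysteine oxidation and sulfide disposal, the sulfurtransferase Tst fell in ventral knockout (-0.39 ± 0.088; limma adjusted p = 0.0141) and was -0.29 without passing in lateral knockout (0.0823). Among 9 genes of cystine and cysteine uptake and 3 regulators, 0 passed by limma in either lobe. The lowest adjusted p was 0.0527 in ventral and 0.0675 in lateral prostate for uptake, and 0.224 and 0.508 for the regulators.

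**Figure D5:**
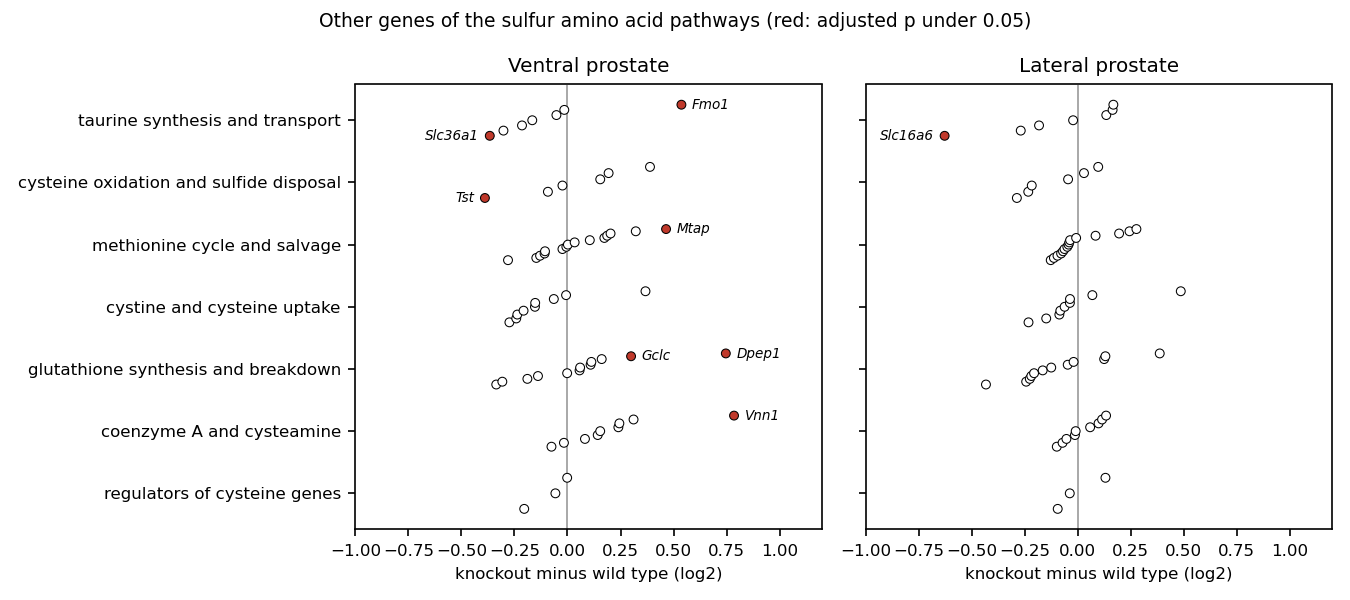
Knockout minus wild-type difference (horizontal axis, log2) of the 61 other pathway genes, 1 point per gene, by list (vertical axis) in ventral (left) and lateral (right) prostate; red points with names passed at an adjusted p under 0.05. In ventral prostate 5 named genes lie right and 2 left of 0, and in lateral prostate Slc16a6 alone passed.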

How the data were processed

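The authors deposited log2 signals per probe set, for which the submitters' processing notes name RMA and the Affymetrix Expression Console, per the labels without a version. Of 45101 probe sets, 34958 had 1 symbol in the platform annotation and were reduced to 18194 genes by the highest mean over 12 arrays. Symbols were updated by Entrez identifier in a RefSeq table of GRCm38.p6, which matched 34754 of them. All genes were fitted with limma 3.58.1 in R 4.3.3 (4 group means, 8 residual degrees of freedom, contrasts, eBayes), and passing meant an adjusted p under 0.05 (Benjamini-Hochberg over all genes). A marker was called dim under the mean lower quartile of its lobe (4.73 ventral, 4.52 lateral). No filter on low signal was used, and all 7 genes lay over this mark in all 4 groups. The steps were tested on simulated data. The 7 genes, the pathway and marker lists and the tests were chosen with earlier results of these data known. Genes named beyond the 7 were Med1, pathway genes past the threshold (at most 4 per list and lobe) and, for each listed gene differing by at least 1 log2 unit, its 5 nearest genes by mean absolute difference, uncharacterized loci passed over. Same-numbered arrays of the genotypes correlated at -0.0071 to 0.12 in their deviations from group means, and those of the lobes within a genotype at -0.061 to 0.072. The numbers were therefore not taken as pairs. Within a group, arrays correlated at 0.992 to 0.996. Arrays give no read depth, and their number limits the precision.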

Additional observations from a re-analysis of the deposited data

Results flagged for a closer look

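For 1 of 6 listed genes and 5 of 61 pathway genes the change in knockout differed between the lobes by limma's test of the difference itself (lateral minus ventral), all with a negative sign. Of all 18194 genes 6.51% did so with that sign, so these counts are near the background. Cth differed by -1.04 ± 0.17 (SE; limma adjusted p = 0.00207), higher in 3 of 3 ventral and lower in 3 of 3 lateral knockout arrays than any wild-type array of the lobe. Dpep1 differed by -0.87 ± 0.18 (0.00692), with 0.75 in ventral and -0.12 in lateral prostate. Vnn1 differed by -0.86 ± 0.19 (0.0128), with 0.79 and -0.071. Fmo1 differed by -0.81 ± 0.15 (0.00469), with 0.54 and -0.27. Gclc differed by -0.51 ± 0.12 (0.0144), with 0.30 and -0.21. Slc16a6 differed by -0.46 ± 0.13 (0.0363), with -0.17 and -0.63. All 6 differences have the sign of the median difference of several marker lists, whose part was not tested. This median was -0.89 for smooth muscle, -0.89 for fibroblasts, -0.59 for basal epithelium and -2.78 for seminal vesicle secretion. It was -0.028, -0.16 and -0.25 for luminal, leukocyte and endothelial markers, of which 0 passed. The medians of adipocyte and urothelial markers had the other sign (0.16 and 0.63). Of 9 adipocyte markers, however, 1 passed as higher and 2 as lower. Of 5 urothelial markers 2 passed as higher and 0 as lower. Of all 18194 genes 509 passed as higher and 1184 as lower. Groups of 3 arrays are too small for a check of single outlying arrays.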

How the results depend on the processing

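Counts of passing genes are given per comparison. With only the arrays compared, 1 listed gene passed in ventral and 1 in lateral prostate (2 each with all arrays), and 2 pathway genes in lateral prostate (1 with all arrays). Lateral pathway genes also numbered 2 after quantile normalization over all arrays, after median centring and with a variance trend, and 3 with probe sets averaged, which gave 13 in ventral prostate (7 with the brightest). Without the dimmest 40% of genes, Cth among them, 1 listed gene passed in ventral prostate and 0 for the lobe difference of the change (1 before). At an adjusted p under 0.01, 0 listed genes passed in ventral and 1 in lateral prostate, and 3 ventral pathway genes. With a change of at least 1.5-fold these counts were 0, 1 and 2. Without both ventral wild-type replicate 3 and lateral knockout replicate 3, 3 ventral and 2 lateral pathway genes and 1 lateral listed gene passed. With each array left out, 0 to 2 listed genes passed in ventral and 1 to 3 in lateral prostate, and 4 to 9 and 1 to 2 pathway genes. The background moved too, over 941 to 1760 of all genes in ventral and 499 to 1168 in lateral prostate. It moved by over 1.5 times in ventral prostate without wild-type replicate 1 (1033), wild-type replicate 3 (941) or knockout replicate 3 (1086), and in lateral prostate without wild-type replicate 2 (588), wild-type replicate 3 (499) or knockout replicate 2 (513). The replicate number as a fixed block left 2 listed genes in each lobe, 6 and 1 pathway genes, and 1492 ventral and 848 lateral genes of all (1652 and 916 without it), and it changed no call on a listed gene. A random block of genotype and number gave the same listed counts. For the lobes within a genotype, 5 listed genes passed after median centring in wild type and in knockout, and 5 after quantile normalization in knockout, each time 3 higher and 2 lower (0 higher and 3 lower as deposited). Wild type after quantile normalization had 2 higher and 1 lower.

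Some values changed sign. After quantile normalization Csad was 0.027 in lateral knockout, the lateral minus ventral difference in wild type was 0.29 for Cth, 0.024 for Cbs and 0.31 for Mpst, and in knockout 0.091 for Csad, 0.54 for Cbs, 0.51 for Got1 and 0.40 for Mpst. After median centring it was 0.31 for Cth and 0.24 for Mpst in wild type, and 0.32 for Cbs, 0.28 for Got1 and 0.30 for Mpst in knockout. Slc6a6 in ventral prostate was -0.15 with probe sets averaged and -0.24, -0.13 and -0.28 in its other probe sets, and 2 of these gave a lobe difference of the change of 0.031 and 0.045. With single arrays left out, values crossed 0 for Cdo1 lateral minus ventral in knockout (-0.25 to 0.18), for Slc6a6 in ventral prostate (-0.015 to 0.099), for the lobe difference of the change of Mpst (-0.021 to 0.13), and for lateral minus ventral in wild type of Cth (-0.13 to 0.068) and Got1 (-0.054 to 0.052) and in knockout of Cbs (-0.075 to 0.015) and Mpst (-0.12 to 0.012). Got1 was also -0.054 for lateral minus ventral in wild type without both ventral wild-type replicate 3 and lateral knockout replicate 3. The cause of these changes was not tested. The comparison of changes between lobes needs all arrays and has no value from fewer groups.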
